A study of Mus musculus with 20 samples.

Results

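The neuropilins Nrp1 and Nrp2 and the class 3 semaphorins Sema3a, Sema3b, Sema3c, Sema3d, Sema3e and Sema3f were followed across 4 groups of dermal fibroblasts from female mice. These 8 genes, of 17097 measured, were picked by hand from 1 family with earlier results of these data known, and the class 3 semaphorin Sema3g was not among them. Within each gene the measured level chose the probe set: of its 2 to 4 probe sets (21 in all) the brightest over all 20 arrays stood for the gene. Each group had 5 mice and 1 array per mouse. Old CR-ND mice were held on 30% caloric restriction (CR) for 7 months from 9 months of age and then ate a normal diet (ND) for 2 months. Old CR mice had the same 2 phases in the other order, 2 months of normal diet and then 7 months of restriction. Old ND mice ate the normal diet for all 9 months, and the 3 old groups were collected at 18 months. Young ND mice were 4 weeks old at the start and ate the normal diet freely for 4 weeks. Per the labels the skin was digested after removal of the subdermis, and the sort kept cells with Pdgfra and CD34 on their surface and without EpCAM, CD31, CD24, CD117 and CD45. RNA came from 10000 sorted cells per mouse, and the labels used here give no strain or genotype.

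Class 3 semaphorins are secreted proteins that repel or steer growing axons and endothelial cells. Most of them bind a neuropilin, a membrane protein with a short intracellular tail, which passes the signal through a plexin in the same complex. Neuropilins also bind VEGF, a growth factor of blood vessels, and stand beside its receptors. In skin, nerve endings, vessels and follicles are guided by these proteins, and fibroblasts are among the cells that make both ligands and neuropilins.

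Promoter windows from RefSeq (GRCm38.p6), 250 bases before to 50 after the annotated start, matched 6 of the 8 members by symbol. The 4 shown belong to the neuropilins, which were both higher in Old ND than in Young ND fibroblasts, and to Sema3c and Sema3d, whose levels ran together over the arrays. They lie at chr8:128358823-128359122 (Nrp1), chr1:62703067-62703366 (Nrp2), chr5:17574566-17574865 (Sema3c) and chr5:12382916-12383215 (Sema3d), all on the plus strand and printed 5′ to 3′, with capitals at the letters GGGCGG on either strand, known as a GC box.
Nrp1: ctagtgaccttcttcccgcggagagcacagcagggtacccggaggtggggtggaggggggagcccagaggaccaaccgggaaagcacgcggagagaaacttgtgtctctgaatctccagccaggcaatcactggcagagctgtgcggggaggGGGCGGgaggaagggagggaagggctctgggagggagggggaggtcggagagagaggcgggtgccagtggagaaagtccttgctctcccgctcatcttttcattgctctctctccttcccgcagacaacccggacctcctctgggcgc
Nrp2: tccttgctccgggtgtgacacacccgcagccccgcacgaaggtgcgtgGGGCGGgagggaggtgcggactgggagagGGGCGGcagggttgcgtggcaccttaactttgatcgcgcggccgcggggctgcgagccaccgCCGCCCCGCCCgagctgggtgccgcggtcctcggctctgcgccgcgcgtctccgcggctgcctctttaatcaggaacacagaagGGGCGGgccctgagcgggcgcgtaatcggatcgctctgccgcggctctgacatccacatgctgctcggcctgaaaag
Sema3c: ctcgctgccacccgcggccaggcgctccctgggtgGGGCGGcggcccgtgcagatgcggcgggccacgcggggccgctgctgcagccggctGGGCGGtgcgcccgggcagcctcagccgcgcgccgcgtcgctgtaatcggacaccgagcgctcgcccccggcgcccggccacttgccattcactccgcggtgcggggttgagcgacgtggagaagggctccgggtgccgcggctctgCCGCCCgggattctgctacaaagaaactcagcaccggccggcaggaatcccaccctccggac
Sema3d: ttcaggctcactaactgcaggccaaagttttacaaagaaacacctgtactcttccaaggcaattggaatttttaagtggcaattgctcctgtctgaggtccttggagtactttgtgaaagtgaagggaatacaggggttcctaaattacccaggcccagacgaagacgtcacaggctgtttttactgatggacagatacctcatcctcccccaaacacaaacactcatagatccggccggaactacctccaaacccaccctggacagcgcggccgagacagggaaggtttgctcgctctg

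The GC box stood 1 time in the Nrp1 window, 5 times in the Nrp2 window, where 2 copies overlap by 1 base, 3 times in that of Sema3c and 0 times in that of Sema3d. Of 32851 promoter windows 35.7% held it. Other motifs were searched on both strands. The TATA box letters TATAAA, which 13.6% of all windows hold, had 0 matches in these 4. The same count of 0 held for the E-box CACGTG, which stands in 7.15% of windows. The FOXO site TGTTTAC, present in 3.65% of windows, also had 0 matches, and so had the cAMP response element TGACGTCA, present in 1.79%. No match says only that these letters are not in these windows. The windows held 14 CpG in Nrp1, 37 in Nrp2, 42 in Sema3c and 8 in Sema3d, against a median of 7 over all windows. In the same annotation Sema3d and Sema3a are direct neighbours with 0 protein-coding genes between them, Sema3e follows with 3 between, and Sema3b and Sema3f are separated by 3 (Gnai2, Slc38a3 and Gnat1).

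All levels are log2 array levels as deposited. Differences are on the log2 scale, first-named group minus second, with the standard error (SE) of limma's moderated test and p adjusted by Benjamini-Hochberg over the 17097 genes, and a gene passed at an adjusted p under 0.05. Array medians lay between 5.27 and 5.34, the median gene level was 5.88 and the lower quartile 4.54. The fibroblast label fits its markers: all 9 (among them Pdgfra, Cd34, Col1a1 and Dcn) lay above the median gene level in their mean over all arrays, although Pdgfra averaged 5.71 in Young ND, below it, while 8 of 9 endothelial and 5 of 8 myeloid markers lay below it. Of 4 Schwann cell markers 2 lay below it, and their mean level per array ran from 5.72 (in Old CR) to 6.36 (in Old CR-ND). Keratinocyte markers had 2 of 8 below it, and their mean level per array ran from 6.48 to 7.48 in Old CR-ND, 6.41 to 6.97 in Old CR, 5.77 to 7.89 in Old ND and 6.05 to 7.21 in Young ND. In bulk RNA, fewer cells of a type and less RNA per cell cannot be told apart. The sample titles carry a specimen number, called the array number here. These numbers form 2 separate runs of 13 and 7 arrays, and the labels do not say whether the runs are processing batches. In a fit with group and run 2934 genes differed by run, Sema3f among the members (second minus first -0.39, adjusted p = 0.0284). The first run held 4 Old CR arrays and 3 of each other group, which leaves 1 and 2 for the second.

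**Figure D1:**
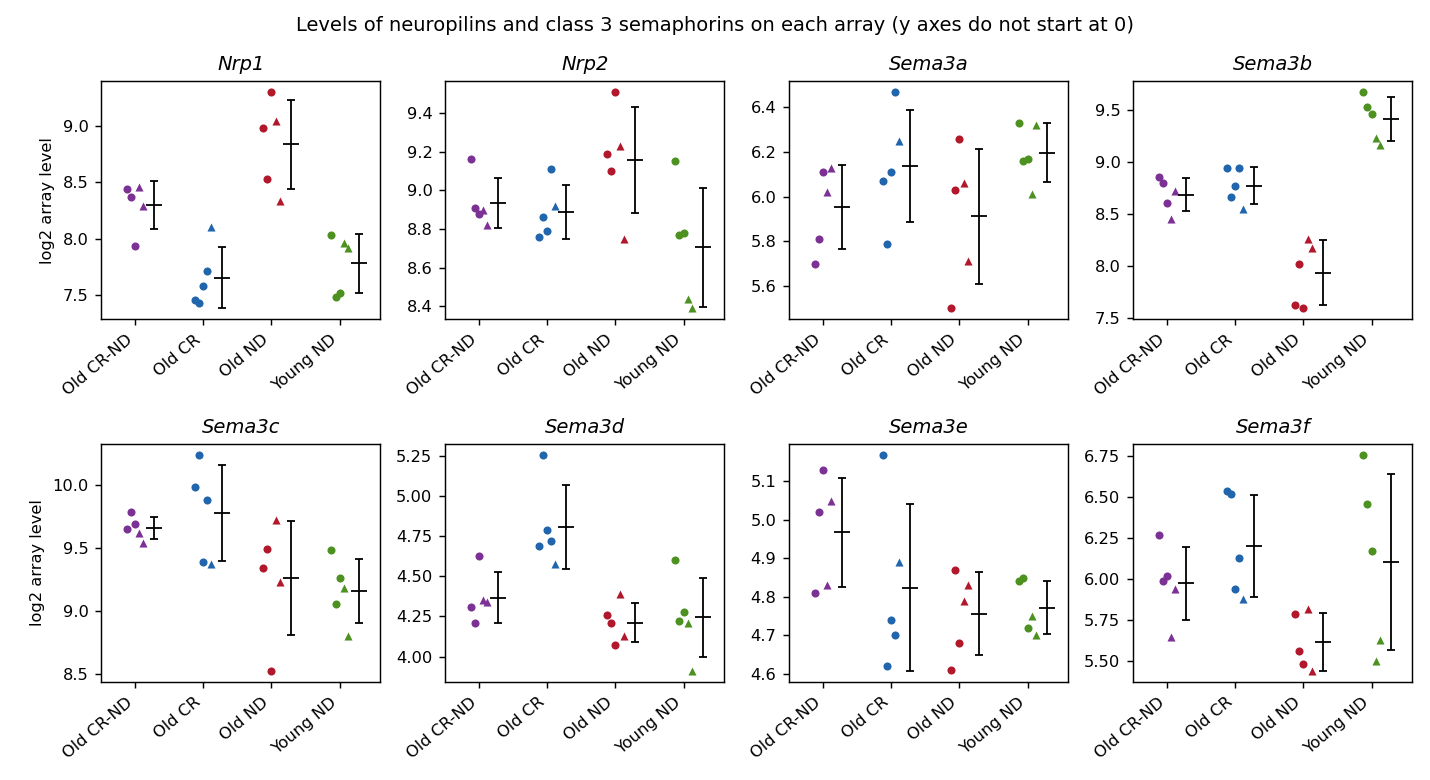
Log2 array level (vertical axis, own scale per panel) of each member in the 4 groups, 1 point per mouse, circles for the first run of array numbers and triangles for the second, with the mean and SD of 5 arrays beside each group. Nrp1 stands highest in Old ND (8.33 to 9.30), Sema3b lowest there (7.59 to 8.26), and Sema3d highest in Old CR (4.58 to 5.26).

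Nrp1, the neuropilin that Sema3a binds best and a coreceptor for VEGF, was highest in old mice on the normal diet. Its level was 8.98, 8.53, 9.30, 9.04 and 8.33 in the 5 Old ND mice, against 8.03, 7.48, 7.52, 7.96 and 7.92 in the 5 Young ND mice. Every Old ND array lay above every Young ND array on this probe set. On the dimmest of the 3 the groups overlapped (Old ND from 6.52, Young ND up to 6.76). Nrp1 rose by 1.05 ± 0.17 (SE, n = 5 per group; 2.08-fold, adjusted p = 0.000243). First-run arrays alone gave 1.26 and second-run arrays alone 0.75, which missed the threshold (adjusted p = 0.0543).

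Under restriction the level of Nrp1 was near that of young mice. The 5 Old CR mice had 7.46, 7.43, 7.58, 7.71 and 8.10, all below the lowest Old ND mouse. The difference from Old ND was -1.18 ± 0.17 (2.27-fold lower, adjusted p = 0.00146). First-run arrays alone gave -1.39, and second-run arrays, with the Old CR mouse at 8.10 as the lone one of its group, gave -0.59 (adjusted p = 0.997). Between Old CR and Young ND the difference was -0.13, with a 95% interval of -0.48 to 0.23 (adjusted p = 0.738).

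The mice returned to the normal diet lay between those 2 levels. Nrp1 was 8.44, 8.37, 7.94, 8.46 and 8.29 in Old CR-ND, a range that overlapped each of the other groups. It did not pass against Old ND (-0.54 ± 0.17, adjusted p = 0.758), against Old CR (0.64 ± 0.17, adjusted p = 0.113) or against Young ND (0.52 ± 0.17, adjusted p = 0.0739). The call against Old CR appeared with array weights (0.66, adjusted p = 0.0317) and without Old CR replicate 5 (0.76, adjusted p = 0.0490), and that against Young ND with 4 alternatives (adjusted p from 0.0355 to 0.0485). Ordered by mean, Nrp1 ran from Old ND (8.84 ± 0.40, SD) through Old CR-ND (8.30 ± 0.21) and Young ND (7.78 ± 0.26) to Old CR (7.66 ± 0.27), and no pair of neighbours in that order passed the test.

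Nrp2, the neuropilin that prefers Sema3f and that also binds the lymphatic growth factor VEGF-C, also had its highest mean in Old ND. It was 9.19, 9.10, 9.51, 9.23 and 8.75 in Old ND, against 9.15, 8.77, 8.78, 8.44 and 8.39 in Young ND. The groups overlapped through the lowest Old ND and the highest Young ND mouse. Nrp2 rose by 0.45 ± 0.13 (1.37-fold, adjusted p = 0.0333), a call lost when Old ND replicate 1, 3 or 4 or Young ND replicate 2, 4 or 5 was left out (adjusted p from 0.0540 to 0.101). Neither run passed alone (0.37, adjusted p = 0.135 in the first and 0.58, adjusted p = 0.0627 in the second).

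In the diet groups Nrp2 averaged 8.93 ± 0.13 (SD) in Old CR-ND and 8.89 ± 0.14 in Old CR, between Old ND (9.16 ± 0.27) and Young ND (8.71 ± 0.31). On the brightest probe set no comparison that included a restricted or refed group passed: the difference was -0.27 ± 0.13 for Old CR against Old ND (adjusted p = 0.373) and -0.22 ± 0.13 for Old CR-ND against Old ND (adjusted p = 0.986). The second probe set of Nrp2 passed for Old CR against Young ND (0.56, adjusted p = 0.0245), where the brightest gave 0.18, and it gave -0.04 for Old CR against Old ND (adjusted p = 0.950). On the brightest the interval for Old CR against Old ND ran from -0.55 to 0.01, and that of Nrp1 in the same comparison from -1.53 to -0.83.

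Sema3b, a secreted semaphorin that binds both neuropilins and is studied as a tumour suppressor in human lung, was lowest in Old ND and had the smallest adjusted p of the 8 members in the age comparison. It was 7.62, 8.02, 7.59, 8.26 and 8.17 in Old ND, against 9.67, 9.52, 9.46, 9.23 and 9.16 in Young ND. The groups did not overlap. Sema3b fell by 1.48 ± 0.13 (2.78-fold, adjusted p = 2.13e-07), and each run passed alone (-1.81 and -0.98).

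On the brightest probe set both groups that had been restricted held Sema3b at a level between Old ND and Young ND. It was 8.85, 8.79, 8.60, 8.45 and 8.72 in Old CR-ND and 8.94, 8.66, 8.77, 8.94 and 8.54 in Old CR, and none of these 10 arrays overlapped Old ND or Young ND. Against Old ND the rise was 0.84 ± 0.13 in Old CR (1.79-fold, adjusted p = 0.00235). First-run arrays gave 1.08 and second-run arrays 0.33, which did not pass (adjusted p = 0.997). In Old CR-ND the difference from Old ND was 0.75 ± 0.13 (1.68-fold) and missed the threshold (adjusted p = 0.0786) in a comparison where 0.00585% of genes passed. Over the alternatives that turned it into a call the adjusted p ran from 0.0134 (first-run arrays, 1.00) to 0.0481 (dim genes left out), and they included leaving out Old ND replicate 4 or 5 (adjusted p = 0.0191 and 0.0385). The other probe sets of Sema3b gave 0.36 and 0.37 there (adjusted p = 0.999 and 0.936), and the mean of all 3 gave 0.49 (adjusted p = 0.709), against 0.81 for Old CR.

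On the brightest of its 3 probe sets, and on that one alone, Sema3b passed as below the young level in both of those groups. It was lower than in Young ND by 0.73 ± 0.13 in Old CR-ND (difference -0.73, adjusted p = 0.00134) and by 0.64 ± 0.13 in Old CR (difference -0.64, adjusted p = 0.00232), and the second of these calls was lost with the mean of its probe sets (-0.34, adjusted p = 0.188) and on second-run arrays (adjusted p = 0.0603). The other probe sets gave -0.996 and -0.22 for Old CR-ND (adjusted p = 0.0574 and 0.464) and -0.48 and 0.11 for Old CR (adjusted p = 0.380 and 0.741). Between Old CR-ND and Old CR the difference was -0.09, with a 95% interval of -0.36 to 0.19 (adjusted p = 0.886). The order of means was Young ND (9.41 ± 0.21, SD), Old CR (8.77 ± 0.18), Old CR-ND (8.68 ± 0.16) and Old ND (7.93 ± 0.31).

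Sema3d, a ligand known for guiding endothelial and neural crest cells, had its highest mean in Old CR. It was 4.69, 5.26, 4.79, 4.72 and 4.58 in Old CR, against 4.26, 4.21, 4.07, 4.39 and 4.13 in Old ND. The lowest Old CR array lay above the highest Old ND array on this probe set. On the second the groups overlapped (Old CR from 4.13, Old ND up to 4.18). The rise was 0.60 ± 0.12 (1.51-fold, adjusted p = 0.0135). First-run arrays gave 0.69 and second-run arrays 0.32 (adjusted p = 0.997).

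Between ages on the normal diet Sema3d did not pass. It was 4.60, 4.22, 4.28, 4.21 and 3.91 in Young ND (Old ND minus Young ND -0.03, 95% interval -0.29 to 0.22). Against Young ND it was higher in Old CR by 0.56 ± 0.12 (adjusted p = 0.00367, and 0.183 on second-run arrays), where the highest Young ND array overlapped the lowest Old CR array. Old CR-ND mice had 4.31, 4.21, 4.63, 4.35 and 4.34, a difference of -0.44 ± 0.12 from Old CR that did not pass (adjusted p = 0.139). Sema3d is dim, its mean of 4.41 below the lower quartile of genes, where background compresses the scale.

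Sema3c, a ligand that binds both neuropilins and is needed for the outflow vessels of the heart, had its highest mean in Old CR on the brightest probe set and in Old CR-ND on the second (9.74, against 9.64 in Old CR), and these groups did not differ beyond their spread (-0.12, adjusted p = 0.894). It was 9.98, 10.24, 9.39, 9.88 and 9.37 in Old CR, against 9.48, 9.05, 9.26, 9.18 and 8.80 in Young ND. The groups overlapped slightly. The rise was 0.62 ± 0.19 (1.53-fold, adjusted p = 0.0329), which no longer passed when Old CR replicate 1, 2 or 4 or Young ND replicate 2, 4 or 5 was left out (adjusted p from 0.0567 to 0.0996). Neither run passed alone (0.61, adjusted p = 0.108 in the first and 0.38, adjusted p = 0.529 in the second).

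In Old CR-ND the Sema3c levels were 9.65, 9.78, 9.69, 9.62 and 9.54, every one above the highest Young ND array, and the difference of 0.50 ± 0.19 did not pass (adjusted p = 0.125). Old ND mice had 9.34, 9.49, 8.52, 9.72 and 9.23, with replicate 3 lowest. Against Old ND the difference was 0.51 ± 0.19 in Old CR (adjusted p = 0.178) and 0.40 ± 0.19 in Old CR-ND (adjusted p = 0.971). Old ND and Young ND differed by 0.11, with a 95% interval of -0.28 to 0.50.

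Sema3a, Sema3f and Sema3e did not pass in any of the 6 comparisons on their brightest probe sets. Sema3a, the ligand that collapses sensory growth cones through Nrp1, averaged 5.95 ± 0.19 (SD) in Old CR-ND, 6.14 ± 0.25 in Old CR, 5.91 ± 0.30 in Old ND and 6.20 ± 0.13 in Young ND. Its smallest adjusted p was 0.209, for Old ND against Young ND (-0.29 ± 0.14). With its 3 probe sets averaged Sema3a passed in 3 comparisons, Old ND against Young ND (-0.55, adjusted p = 0.00243), Old CR against Old ND (0.47, adjusted p = 0.0269) and Old CR-ND against Young ND (-0.38, adjusted p = 0.0402).

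Sema3f, the ligand that acts through Nrp2, averaged 5.97 ± 0.22 in Old CR-ND, 6.20 ± 0.31 in Old CR, 5.62 ± 0.18 in Old ND and 6.10 ± 0.54 in Young ND. All 5 Old CR arrays (5.88 to 6.54) lay above all 5 Old ND arrays (5.44 to 5.82). The difference of 0.58 ± 0.20 did not pass (adjusted p = 0.132), while first-run arrays alone did (0.67, adjusted p = 0.0343). Second-run arrays alone gave 0.25. The difference of Old ND from Young ND was -0.49 ± 0.20 (adjusted p = 0.130), and 3 alternatives turned it into a call. These were a block for the run (adjusted p = 0.0441), first-run arrays (-0.85, adjusted p = 0.00770) and leaving out Young ND replicate 4 (-0.64, adjusted p = 0.0342). Second-run arrays alone gave 0.065, so the fall was seen in the first run only.

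Sema3e, which signals through plexin D1 without needing a neuropilin, was dim, with means between 4.76 (Old ND) and 4.97 (Old CR-ND). Its difference of Old ND from Young ND was -0.02, with a 95% interval of -0.21 to 0.17, and that of Old CR from Old ND 0.07, with an interval of -0.12 to 0.26. With its 4 probe sets averaged Sema3e passed in Old CR-ND against Young ND (0.25, adjusted p = 0.0425).

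**Figure D2:**
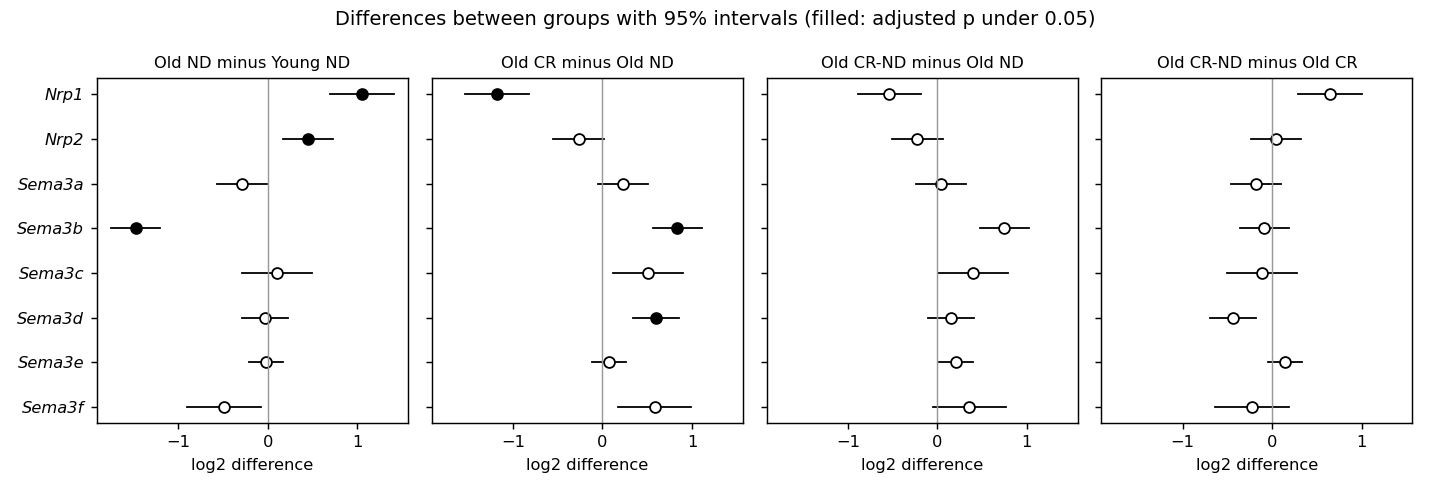
Log2 difference (horizontal axis) of each member in 4 comparisons, with its 95% interval from limma and filled points where adjusted p was under 0.05. Nrp1 and Sema3b stand on opposite sides of 0 in the first 2 panels, 1.05 and -1.48 for Old ND minus Young ND and -1.18 and 0.84 for Old CR minus Old ND, and no point is filled in the last 2.

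Counted together, 3 of 8 members passed in Old ND against Young ND, Nrp1 and Nrp2 up and Sema3b down, where 10.9% of all genes passed (4.45% up and 6.49% down). In Old CR against Old ND, 3 of 8 passed, Sema3b and Sema3d up and Nrp1 down, against 2.39% of all genes (1.57% up and 0.819% down). These 2 comparisons share the Old ND arrays, so an opposite sign of Nrp1 and Sema3b in them is not independent. The groups did not overlap for 2 members in the first comparison, where that held for 7.38% of genes, and for 4 in the second, where it held for 3.23%. For the other comparisons that count was 1 for Old CR-ND against Old ND (0.480% of genes), 0 for Old CR-ND against Old CR (2.17%), 1 for Old CR against Young ND (10.4%) and 2 for Old CR-ND against Young ND (6.59%). The median difference of the 8 members was -0.02 in the first comparison and 0.37 in the second, and the median over all genes was 0.00 in both.

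In Old CR-ND against Old ND limma called 0 of 8 members and 1 gene of all 17097 (0.00585%, with 0.00585% up and 0.0% down). At an unadjusted p under 0.05 there were 4 members and 868 of all genes. In Old CR-ND against Old CR limma called 0 of 8 and 0.333% of all genes (0.123% up and 0.211% down), with 2 members and 1674 of all genes at an unadjusted p under 0.05. Against Young ND, 3 of 8 passed in Old CR (Sema3c and Sema3d up and Sema3b down), where 12.7% of genes passed (7.11% up and 5.56% down), and 1 of 8 in Old CR-ND (Sema3b, down), where 7.04% passed (3.22% up and 3.82% down).

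Where a gene had several probe sets, they served as further readings of the same RNA on the same arrays, not as replicates. With all 28898 probe sets that name 1 gene tested, the 3 of Nrp1 all passed in Old ND against Young ND (1.05, 1.09 and 1.01) and in Old CR against Old ND (-1.18, -1.28 and -1.09). Both of Nrp2 passed for age (0.45 and 0.60), and both of Sema3d passed for Old CR against Old ND (0.60 and 0.57). The 3 of Sema3b all passed for age (-1.48, -1.35 and -0.60), and 2 of 3 for Old CR against Old ND (0.84, 0.88 and 0.70, the middle one at adjusted p = 0.162). Both of Sema3c passed for Old CR against Young ND (0.62 and 0.65), and the second also for Old CR-ND against Young ND (0.75, adjusted p = 0.0234).

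For Sema3a the probe set decided the outcome. Its second probe set, dimmer by mean (5.49, against 6.05 for the brightest), read 5.60, 5.88, 6.0, 5.90 and 5.86 in Old CR, against 5.00, 4.48, 5.62, 4.81 and 4.68 in Old ND, and 6.65, 6.19, 5.98, 5.42 and 5.82 in Young ND. On it Sema3a fell in Old ND relative to Young ND (-1.09 ± 0.21, adjusted p = 0.00152) and rose in Old CR relative to Old ND (0.93 ± 0.21, adjusted p = 0.0239), while the brightest probe set gave -0.29 and 0.23 and the third -0.27 and 0.26, with no call. In Old CR-ND it averaged 5.18 ± 0.33, below Young ND (-0.83, adjusted p = 0.0200). The 3 probe sets had the same sign in these comparisons. The second probe set of Sema3f gave 0.02 for age and -0.11 for Old CR against Old ND, against -0.49 and 0.58 on the brightest.

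**Figure D3:**
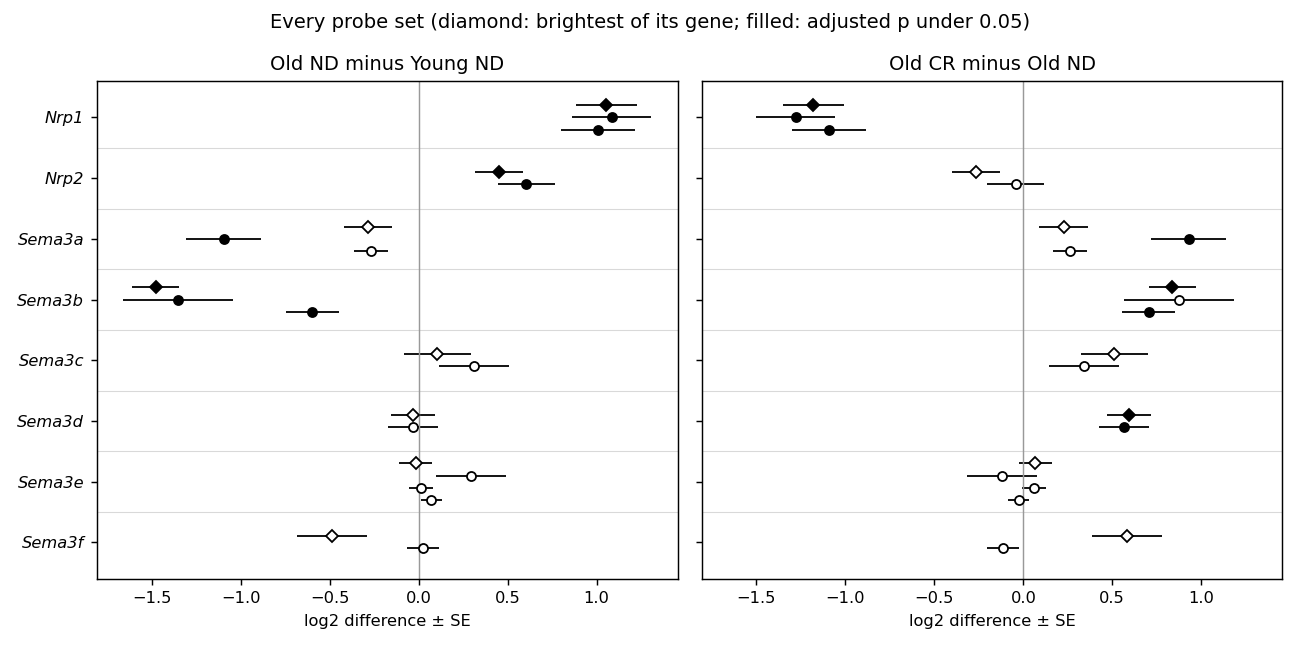
Log2 difference ± SE (horizontal axis) of all 21 probe sets of the members in 2 comparisons, diamonds for the brightest probe set of a gene and filled symbols where adjusted p was under 0.05. The 3 probe sets of Nrp1 lie together (1.01 to 1.09 and -1.28 to -1.09), while those of Sema3a spread from -1.09 to -0.27 and from 0.23 to 0.93.

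Across the 20 arrays Nrp1 ran against Sema3b (Pearson r = -0.76, Spearman rho = -0.69) and with Nrp2 (r = 0.65, rho = 0.66), and Sema3c ran with Sema3d (r = 0.74, rho = 0.69). These are descriptions over arrays that fall into 4 groups and 2 runs. Among 8241 other named genes above the median level, those most like Nrp1 over the 20 arrays were Igfbp4, a carrier of insulin-like growth factors (r = 0.90), F2r, the thrombin receptor (r = 0.90), and Zbtb7c (r = 0.88). Those most like Sema3b were Cmah, the sialic acid hydroxylase (r = 0.93), Tmed3 (r = 0.91) and Gria4, a glutamate receptor subunit (r = 0.91). Those most like Sema3d were Aig1 (r = 0.86), the membrane peptidase Dpp4 (r = 0.85) and Npr1, a natriuretic peptide receptor (r = 0.85). Nrp2 was followed by Spata13 (r = 0.90), Clstn1 (r = 0.88) and Cd9 (r = 0.88), and Sema3c by Adamtsl1 (r = 0.89), Nod1 (r = 0.84) and Antxr2 (r = 0.82). With each run's mean removed these values ranged from 0.84 to 0.93.

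The plexins, the signalling receptors beside neuropilins, showed no call in any comparison. Of 9 measured, limma called 0 for Old ND against Young ND, where 10.9% of all genes passed, and 0 for Old CR against Old ND, where 2.39% did. With 9 genes a count of 0 is near both shares. At an unadjusted p under 0.05 there were 1 and 2, and the smallest adjusted p in these 2 comparisons was 0.174, for Plxnc1 in the age comparison (0.42). Limma also called 0 in the other 4, where the number at an unadjusted p under 0.05 was 0 for Old CR-ND against Old ND, 2 for Old CR-ND against Old CR, 3 for Old CR against Young ND and 0 for Old CR-ND against Young ND. Among 14 other semaphorins, 1 rose and 2 fell in Old ND against Young ND, where 4.45% of all genes rose and 6.49% fell. Sema4a, a membrane semaphorin known from immune cells, rose by 1.66 ± 0.25 (adjusted p = 0.000130), to 7.61 in Old ND against 5.94 in Young ND. Sema6d fell by 1.09 ± 0.23 (adjusted p = 0.00322, and 0.0617 on first-run arrays) and Sema4b by 0.62 ± 0.15 (adjusted p = 0.0107). In Old CR against Old ND, where 2.39% of all genes passed, 1 of the 14 did, Sema4a, which was lower (6.40 in Old CR and 7.61 in Old ND, -1.20 ± 0.25, adjusted p = 0.0153). That call was lost with only those 2 groups in the fit (adjusted p = 0.0809) and on second-run arrays (-1.09, adjusted p = 0.711). Sema3g, the class 3 semaphorin outside the 8, averaged 4.73 in Old CR, 5.50 in Old ND and 5.16 in Young ND and did not pass (-0.77 ± 0.26 for Old CR against Old ND, adjusted p = 0.127). Against Young ND, 2 of the 14 fell in Old CR, where 12.7% of all genes passed. They were Sema6d (-1.27, adjusted p = 0.000714) and Sema4d (-0.54, adjusted p = 0.00957). In Old CR-ND, where 7.04% passed, the same 2 fell (-1.20 and -0.55, adjusted p = 0.00201 and 0.0159). Sema4a rose there (1.03, adjusted p = 0.0152), which first-run arrays alone did not give (0.94, adjusted p = 0.193). Second-run arrays gave Sema4d -0.35 and -0.455.

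In Old ND against Young ND 10.9% of all 17097 genes passed, and 3924 had an unadjusted p under 0.05. Of 8 VEGF ligands and receptors 5 had an unadjusted p under 0.05 there and 1 passed, a share near that of all genes. That was Vegfb, a ligand of Flt1 and Nrp1, which rose (0.57 ± 0.11, adjusted p = 0.00182). It was also higher than in Young ND in Old CR-ND (0.54, adjusted p = 0.00440) and Old CR (0.89, adjusted p = 1.84e-05), and Flt1 was higher in Old CR (0.46, adjusted p = 0.00824), which neither run gave alone (adjusted p = 0.0817 and 0.154). Limma called 0 of the 8 in Old CR against Old ND, where 2.39% of all genes passed, with 2 at an unadjusted p under 0.05, Vegfb (0.32, adjusted p = 0.164) and Vegfa (-0.37, adjusted p = 0.216).

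Of 22 measured partners and intracellular mediators, 1 rose and 6 fell in Old ND against Young ND, where 10.9% of all genes passed. The rise was that of the kinase Limk2 (0.32, adjusted p = 0.0451). It lost its call without any of 6 of the 10 arrays (Old ND replicates 1, 3 and 5 and Young ND replicates 1, 4 and 5, adjusted p from 0.0714 to 0.130). In each run alone it was lost too (0.26, adjusted p = 0.211 in the first, and 0.425 in the second). The same held with probe sets averaged (0.20, adjusted p = 0.0820), quantile normalization once more, arrays centred on the median, array weights or only those 2 groups fitted (adjusted p from 0.0525 to 0.0872). Of the falls, that of the GTPase Rac1 (-0.24, adjusted p = 0.0364) was lost without any of 7 (Old ND replicates 1, 2 and 5 and Young ND replicates 1, 2, 3 and 5, adjusted p from 0.0541 to 0.101). Rac1 also missed the threshold with limma's trended and robust variance (adjusted p = 0.0516) and with only those 2 groups fitted (adjusted p = 0.0654). Second-run arrays gave -0.195. The kinase Limk1 fell by more than Limk2 rose (-0.58, adjusted p = 0.0138). It kept its call whichever of the 10 arrays was left out, and the runs alone gave -0.56 and -0.61. The adhesion molecules Nrcam (-0.91 ± 0.13, adjusted p = 4.82e-05) and L1cam (-0.65 ± 0.14, adjusted p = 0.00465), which join neuropilins in semaphorin receptors of neurons, fell, as did Mical1, an oxidase that takes actin filaments apart (-0.55 ± 0.13, adjusted p = 0.00582), and the kinase Fyn (-0.38 ± 0.10, adjusted p = 0.0109). Mical1 missed the threshold in each run alone (adjusted p = 0.0508 and 0.0840), and L1cam (-0.36, adjusted p = 0.419) and Fyn (-0.09, adjusted p = 0.858) missed it on second-run arrays. Fyn also missed it with only those 2 groups in the fit (adjusted p = 0.0597). In Old CR against Old ND 1 of the 22 passed, where 2.39% of all genes did. That was Fyn, which was higher (10.82 in Old CR and 10.27 in Old ND, 0.55 ± 0.10, adjusted p = 0.00466), and second-run arrays gave 0.22. Against Young ND, 1 rose and 4 fell in Old CR, where 12.7% of all genes passed. The 4 were Nrcam (-0.78, adjusted p = 0.000256), L1cam (-0.57, adjusted p = 0.0109), Limk1 (-0.52, adjusted p = 0.0252) and Mical1 (-0.42, adjusted p = 0.0302). Limk1 and Mical1 lost these calls without any 1 of several arrays. In Old CR-ND, where 7.04% passed, Nrcam fell (-0.66, adjusted p = 0.00217), which first-run arrays alone did not give (adjusted p = 0.0995).

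Of 4 proprotein convertases, the proteases that cut class 3 semaphorins at basic sites, Pcsk6 passed in Old CR against Old ND, where 2.39% of all genes did. It averaged 9.04 in Old CR and 8.00 in Old ND, a rise of 1.04 ± 0.19 (2.06-fold, adjusted p = 0.00534) without overlap. The call was lost with only those 2 groups in the fit (adjusted p = 0.0519) and on second-run arrays (0.29, adjusted p = 0.997). For Old ND against Young ND it stood at -0.54 (adjusted p = 0.0718), and limma called 0 of the 4 (2 at an unadjusted p under 0.05), with the next smallest adjusted p for Pcsk7 (-0.27, adjusted p = 0.147).

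**Figure D4:**
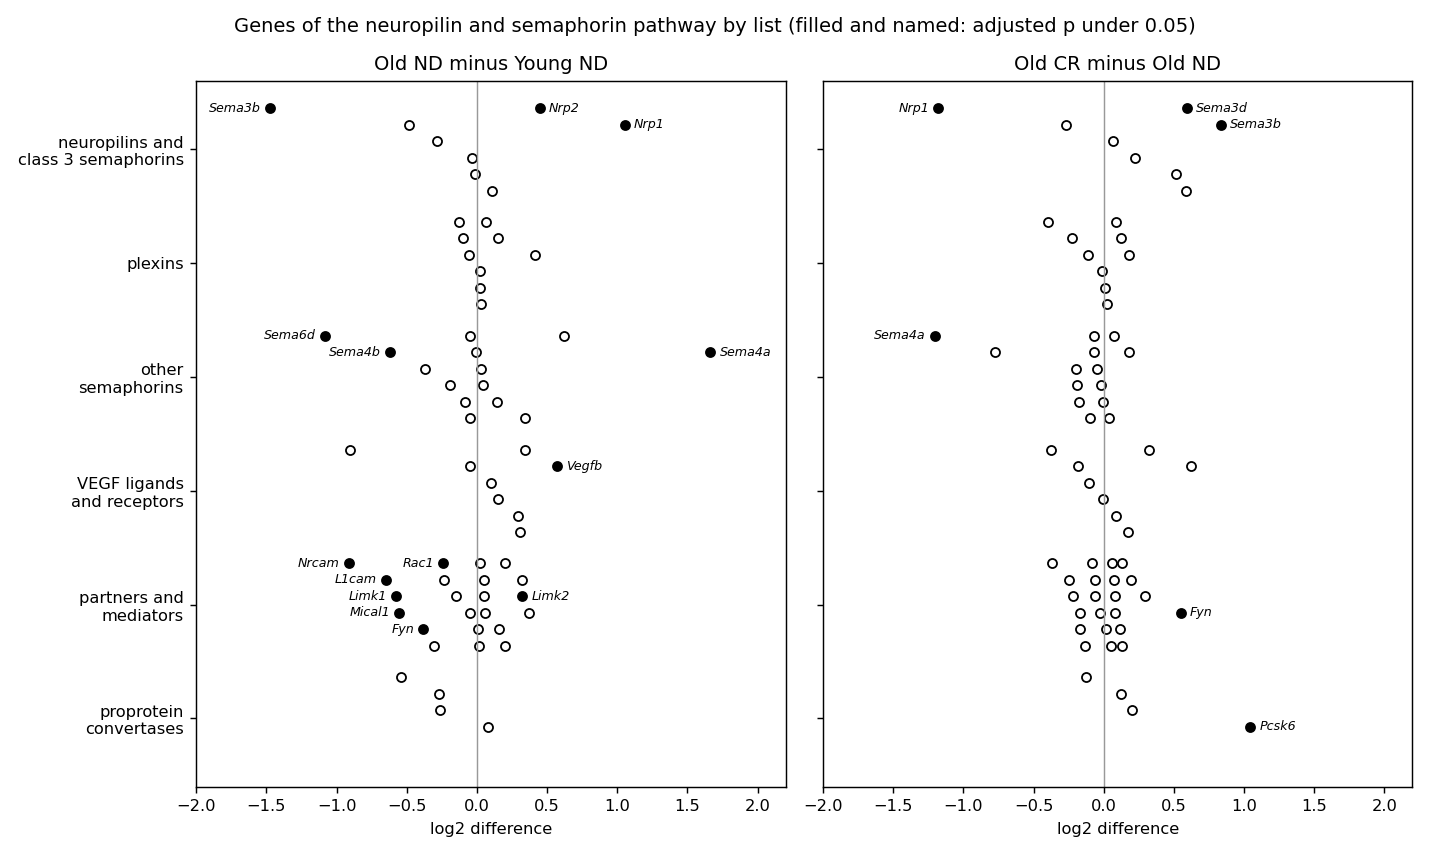
Log2 difference (horizontal axis) of each gene of the members and the 5 pathway lists, grouped by list down the page, in 2 comparisons, with filled and named points where adjusted p was under 0.05. None of the plexins is filled, while Nrp1 (1.05 and -1.18) and Sema4a (1.66 and -1.20) are filled and lie far from 0 in both panels.

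Markers of other cell types were set beside these changes. Of the 7 sorting genes, Cd34 averaged 11.19 in Old CR-ND, 11.23 in Old CR, 11.01 in Old ND and 11.30 in Young ND, and Pecam1, which marks endothelial cells, lay between 5.16 and 5.79 on every array. Cdh5, a defining endothelial gene, was near the lower quartile in every group, at 4.53 in Old CR-ND, 4.48 in Old CR, 4.61 in Old ND and 4.48 in Young ND. Of the 9 endothelial markers 1 passed in Old ND against Young ND, Tek (5.36 in Old ND against a mean of 4.35 in Young ND, adjusted p = 0.0239), while Kdr (6.13 in Old ND against a mean of 7.04 in Young ND, adjusted p = 0.0635) and Cldn5 (4.71 in Old ND against a mean of 4.91 in Young ND, adjusted p = 0.0774) lay the other way and did not pass. The mean of that list ranged from 5.06 to 5.24 in Old CR-ND, 5.02 to 5.22 in Old CR, 4.77 to 5.16 in Old ND and 4.79 to 5.08 in Young ND. Of 4 lymphatic markers 1 passed in that comparison, Prox1, which was higher (4.36 in Old ND against a mean of 3.97 in Young ND, adjusted p = 0.0263). Of the 8 myeloid markers 1 passed, Csf1r, which was lower (6.48 in Old ND against a mean of 7.68 in Young ND, adjusted p = 1.41e-07), while Cd68 lay the other way (7.67 in Old ND against a mean of 6.73 in Young ND, adjusted p = 0.0680). Among 5 pericyte and smooth muscle markers Des was lower (-0.35, adjusted p = 0.0407), and 3 of 9 fibroblast markers were lower, Cd34, Col1a1 and Col3a1. On the 11 lists limma called 7 of 63 markers in Old ND against Young ND, where 10.9% of all genes passed. In Old CR and in Old CR-ND against Old ND it called 0 of the 63, with 8 and 6 at an unadjusted p under 0.05. Of all 17097 genes 2.39% and 0.00585% passed in these comparisons, and 2477 and 868 had an unadjusted p under 0.05. The part of other cells in the levels of the members was not tested.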

How the data were processed

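RNA of sorted dermal fibroblasts was measured on 20 Affymetrix mouse arrays. The deposited values are log2 levels of probe sets, which the authors computed with RMA and the affy package, per the submitters' processing notes; versions, filters and any batch correction are not given in the sources used here. Arrays have no read depth, so their number limits the precision. Of 45141 probe sets, 28898 named 1 gene; symbols were updated through Entrez numbers against RefSeq (GRCm38.p6; 28689 matched).

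All arrays were fitted with limma 3.58.1 in R 4.3.3, 1 mean per group, two-sided, with Benjamini-Hochberg adjustment over 17097 genes. The labels give no test. The script was tested on simulated data that had no array runs and no correlation between genes, so that test says nothing about either. The labels name 5 biological replicates per group, numbered here in accession order.

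The members, the 5 pathway lists and the 11 cell type lists were chosen with earlier results of these data known. Named were all members, the 3 genes most correlated with each member that passed somewhere, and the sorting genes. From each pathway list, at most 4 genes that passed were named per comparison, by smallest adjusted p, or at most 2 if none did. The pathway plot names every gene that passed. Limk1, Limk2, Rac1, Sema3g and the cell type markers beyond the sorting genes were named after their values were seen. Alternatives covered probe sets, dim genes, normalization, variance model, groups fitted, array run and leaving out each array.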

Additional observations from a re-analysis of the deposited data

Results flagged for a closer look

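Nrp2 in Old CR-ND replicate 1 was 9.16, apart from the other 4 arrays of its group, which lay between 8.82 and 8.91 (gap over range 0.74, above the critical value of 0.71 for 5 samples). It was the only such array among the 32 combinations of a member and a group that were examined, and chance alone flags about 1 group in 20.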

How the results depend on the processing

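No paired analysis was made, because each mouse gave 1 array in 1 group and the labels name no pairs of mice. Set against the fit as reported, no member changed direction with a call on either side. Of 1044 single results of members, 998 kept their side of the threshold under the alternatives tried, while 24 lost and 22 gained a call. A result that was no call as reported could not lose one. Between the runs, Sema3f for Old ND against Young ND passed at -0.85 in the first and gave 0.065 in the second. Within the second run, where Old CR has 1 array and is assumed to vary like the other groups, 1 member in place of 3 passed for Old ND against Young ND, and 0 in place of 3 for Old CR against Old ND and against Young ND. For Old CR-ND against Old ND, 1 member in place of 0 (Sema3b) passed with every probe set tested, with the run as a block and within the first run. It also passed with dim genes left out, those whose highest group mean was not above the median gene level. That filter uses the groups compared. For Old CR-ND against Old CR, 1 in place of 0 (Nrp1) passed with array weights. For Old CR-ND against Young ND, 1 member passed as reported, 4 with each gene's probe sets averaged and 3 with only the 2 groups in the fit. With the same filter on dim genes, quantile normalization once more or array weights, 2 passed. Leaving out 1 array gave 2 to 3 members for Old ND against Young ND and for Old CR against Young ND, 3 for Old CR against Old ND, 0 to 1 for Old CR-ND against Old ND and against Old CR, and 1 for Old CR-ND against Young ND.

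Counts over all genes moved more. Old ND against Young ND had 1870, and 1049 within the second run. Old CR against Old ND had 409, 191 with only those groups fitted, 711 with the run as a block, 795 and 1 within the runs, and 201 to 498 without 1 array. Old CR-ND against Old ND had 1, and 0 to 22 over the alternatives. Old CR-ND against Old CR had 57, 235 with array weights, 120 with the run as a block, 10 and 1 within the runs, and 17 to 110 without 1 array. Old CR against Young ND had 2167, and 576 within the second run, and Old CR-ND against Young ND 1203, 795 and 621 within the runs, and 790 without Old CR-ND replicate 3. The causes were not tested. The same alternatives for pathway genes were added after the data were seen, and 66 of 609 ended a call.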
